A study of Homo sapiens with 16 samples.

Results

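RAD21 binding was compared between HCT116 and DKO cells at every region of the RAD21 table deposited with the series, 180061 of the 1255311 regions in its 7 tables. RAD21 is the kleisin subunit that closes the cohesin ring. All regions of the table were used and none was selected by its value. HCT116 is a colorectal carcinoma cell line. DKO is known as a clonal derivative of HCT116 made by disrupting DNMT1 and DNMT3B, which encode DNA methyltransferases, so that its DNA has lost most of its methylation, but the labels name the line alone. Both lines were grown in the same medium and received no treatment. The series asked how DNA methylation acts on the choice of polyadenylation site through CTCF and cohesin. It used chromatin immunoprecipitation and sequencing of 14 libraries, 1 per line for each of 7 targets, beside 2 input libraries that were not used here. Each RAD21 library came from 30 μg of chromatin and 4 μg of antibody and was sequenced as 75 nt single-end reads. With 1 library per line there was no replicate error to weigh a difference by, and a difference between the lines cannot be told apart from a difference between these 2 libraries or between this clone and its parent. No test between the lines was made.

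Cohesin is a ring of SMC1, SMC3 and RAD21 with a STAG subunit. It extrudes loops of chromatin and halts where CTCF, a zinc finger protein, is bound in the right orientation, so the strongest cohesin sites of most mammalian cells are CTCF sites. Cohesin is also loaded at active promoters and enhancers, which carry H3K27Ac, and methylation of the CTCF motif can keep CTCF from binding. Whether the RAD21 regions carried the partners of cohesin was checked by overlap of at least 1 bp with the SMC1 and CTCF tables, in 4 density classes of nearly equal size by mean log2 density, named lowest, lower middle, upper middle and highest. In the highest class 96.0% overlapped an SMC1 region, 95.1% a CTCF region and 92.1% both. In the upper middle class 66.2% overlapped SMC1 and 72.1% CTCF, and in the lower middle class 40.9% and 54.7%. In the lowest class 18.6% overlapped SMC1, 35.8% CTCF and 10.2% both. The dense RAD21 regions thus overlapped a region of a second cohesin subunit in nearly every case, while most of the thin regions did not. Median length was 1096 bp in the highest class and 208 bp in the lowest, and a longer region meets a 1 bp overlap more easily. In the lowest class the median region had 26 RAD21 reads in DKO and 15 in HCT116. Lack of an overlapping region there does not mean that the partner was absent.

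The 2 RAD21 profiles shared a core of long, dense regions and differed at many short, thin ones. The authors called 68784 regions (38.2%) in both lines, 67471 in DKO only and 43806 in HCT116 only. Regions called in both lines had a median length of 796 bp and median normalized densities of 68.8 in DKO and 70.9 in HCT116. They carry the authors' label of merged common peaks, so merging can add to their length. Regions called in DKO only had a median length of 233 bp with densities of 37.2 and 22.6, and those called in HCT116 only had 230 bp with 23.9 and 35.3. A density is the authors' scaled read density of a 1 kb window, and the median region of the table rested on 46 reads in DKO and 30 in HCT116. M is the log2 ratio of the densities, DKO over HCT116.

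Among all RAD21 regions, 24621 (13.7%) were past 2-fold toward DKO, with an M of 1 or more, and 15657 (8.7%) were past 2-fold toward HCT116, with an M of -1 or less. Another 83851 (46.6%) had an M within 0.5 of 0 and are termed similar. These shares were 27.6% and 19.4% at a 1.5-fold threshold and 1.97% and 0.655% at 4-fold. The 95% counting interval of M left out 0 at 41.1% of all RAD21 regions. It did so at 97.1% of the regions past 2-fold toward DKO, at 96.8% of those toward HCT116 and at 6.08% of the similar ones. These classes were set by M from the same reads, so their shares were largely fixed in advance. This interval covers counting error of these libraries only. The majority toward DKO depended on the scaling. Regions higher in DKO were 61.1% of those past 2-fold as deposited, 74.1% with 1 offset for all densities, 47.2% with M recentred on the median of all regions (0.14) and 46.9% with chromosome medians removed. Among regions called in both lines 3465 were higher in DKO and 3989 in HCT116. Below, classes of RAD21 regions are compared with each other by the difference of their median M. Recentring on all regions does not alter such a difference, but 1 offset for all densities does where the classes differ in density, and its values are given where it moves such a difference by over 1.5 times.

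Being called in 1 line did not mean that the other line lacked RAD21. Of the regions called in DKO only, 21114 were past 2-fold toward DKO, 34.8% were similar and 8.26% had an M at or below 0. Of those called in HCT116 only, 11636 were past 2-fold toward HCT116, 41.1% were similar and 13.2% had an M at or above 0. The median M was 0.70 (quartiles 0.35 and 1.12) for DKO only, -0.61 (-1.03 and -0.23) for HCT116 only and 0.02 (-0.39 and 0.37) for both. Among the regions called in both lines, 5.04% were past 2-fold toward DKO and 5.80% toward HCT116. Complete absence of reads was rare: 36 regions had 0 reads in HCT116 and 14 had 0 in DKO. The largest count facing a 0 was 75 reads in DKO and 174 in HCT116.

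**Figure D1:**
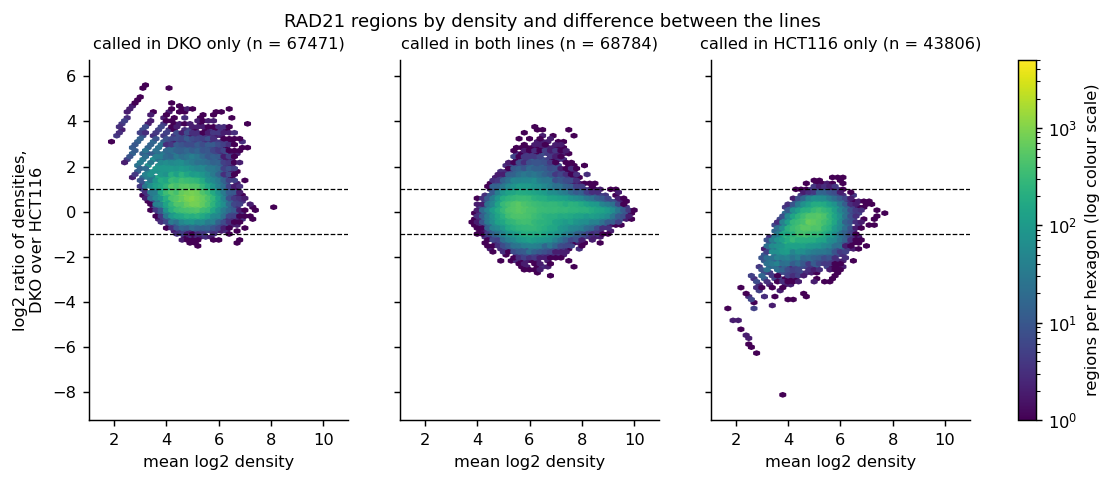
RAD21 regions by mean log2 density (x axis) and log2 ratio of DKO over HCT116 density (y axis), in 3 panels by the line in which the authors called the region. Colour gives the number of regions per hexagon on a log scale and the dashed lines mark 2-fold. Regions called in both lines reach the highest densities and centre near 0 (median 0.02), while the single-line groups lie at lower densities around 0.70 and -0.61 and overlap the 2-fold lines.

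Longer RAD21 regions were called in both lines far more often than short ones. Since regions called in both lines are merged peaks, this order can be partly set by the merging and is given as a description. Median M was 0.19 in the 64647 regions under 250 bp, 0.20 from 250 to under 500 bp, 0.09 from 500 to under 1000 bp, 0.02 from 1000 to under 2000 bp and 0.07 in the 7050 regions of 2000 bp or more. With 1 offset for all densities these medians were 0.36, 0.33, 0.12, -0.10 and -0.18, so the longest minus the shortest class went from -0.12 to -0.55, and it was 0.04 in the regions called in both lines. The share called in both lines went from 2.24% in the shortest class to 99.4% in the longest. The share past 2-fold toward DKO was 13.7% in the shortest class and 4.58% in the longest, and toward HCT116 it was 8.93% and 4.24%. Overlap rose with length as well: 22.4% of the shortest and 100% of the longest regions overlapped SMC1, 40.3% and 99.6% overlapped CTCF, and 38.4% and 79.7% overlapped H3K27Ac. A longer region meets a 1 bp overlap more easily, so this rise is partly set by the overlap rule. Since length and calling group were tied, they were also crossed.

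In the groups called in 1 line, longer RAD21 regions had an M farther from 0, and in the group called in both lines M was flat. A region called in 1 line passed the call through the line where it is high, so a difference in its direction is partly set by the call and is given as a description. Regions called in DKO only had a median M of 0.58 under 250 bp, 0.78, 1.23 and 1.99 in the classes between, and 3.09 at 2000 bp or more, where 37 regions remained. Regions called in HCT116 only had medians of -0.52, -0.66, -1.03 and -1.35 in the first 4 classes, and -1.23 in 4 regions of 2000 bp or more. Regions called in both lines stayed between 0.01 and 0.07 in every length class. The 37 longest regions called in DKO only had median densities of 202 in DKO and 28.4 in HCT116, so single-line regions of this length were dense in 1 line, and all 37 were past 2-fold. The share past 2-fold among the single-line regions from 500 to under 1000 bp was 64.1% for DKO and 52.5% for HCT116.

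**Figure D2:**
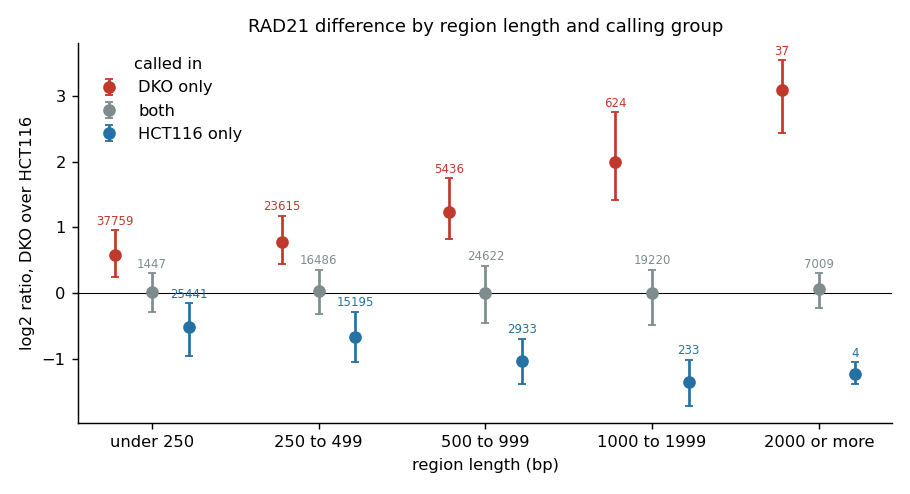
Median log2 ratio of RAD21 densities, DKO over HCT116 (y axis), by region length in bp (x axis) and by the line in which the authors called the region. Points are medians, bars are quartiles over regions and numbers are regions. Regions called in both lines sit near 0 at every length, while those called in DKO only go from 0.58 to 3.09 and those called in HCT116 only from -0.52 to -1.35 before the last class of 4 regions.

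By mean density, the thin RAD21 regions were past 2-fold most often, in both directions. The classes use mean log2 density, so a region low in 1 line moves toward the thin classes through its own difference. The median region had 26 reads in DKO and 15 in HCT116 in the lowest class, against 111 and 95 in the highest. Counting error spreads M more at fewer reads, and how much it adds to the shares of the thin classes was not tested. In the lowest density class 25.4% of regions were past 2-fold toward DKO and 16.2% toward HCT116, with the middle 50% of M between -0.67 and 1.00 around a median of 0.33. In the highest class these shares were 5.91% and 6.48%, with the middle 50% between -0.41 and 0.36 around 0.03. The lower and upper middle classes had medians of 0.20 and 0.14. With 1 offset for all densities the 4 medians were 0.58, 0.38, 0.25 and -0.08, so the order held. Among regions called in both lines the medians were -0.09, 0.05, 0.05 and 0.01, and the order did not hold. In the lowest class 2.80% of regions were called in both lines, against 91.7% in the highest. Most thin regions thus passed the call in 1 line only, and their shares are given as a description. With classes by the higher density, the highest minus the lowest median was -0.08, against -0.30 here.

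SMC1, another subunit of the same ring, differed between the lines in step with RAD21. Of all 159358 SMC1 regions, 9.36% were past 2-fold toward DKO and 4.67% toward HCT116. At the 10692 RAD21 regions over SMC1 regions higher in DKO, RAD21 was past 2-fold toward DKO at 60.5% and toward HCT116 at 0.0842%, with a median M of 1.19. Over the 2616 SMC1 regions higher in HCT116, it was past 2-fold toward HCT116 at 60.8% and toward DKO at 0.306%, with a median of -1.15. Over similar SMC1 regions the shares were 4.08% and 4.92%. Spearman's rho of M between the subunits was 0.71 across 99724 matched regions and 0.63 across 44663 called in both lines in both tables. These are descriptions across sites, since sites share the same 2 libraries per target and their depth. The median M was 0.14 both with and without an SMC1 region as deposited, but 0.15 with and 0.30 without one under 1 offset for all densities.

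CTCF, the protein at which cohesin halts, was past 2-fold in the same direction as RAD21 far more often than in the other. Of all 171693 CTCF regions, 20.1% were past 2-fold toward DKO and 6.33% toward HCT116. At the 21970 RAD21 regions over CTCF regions higher in DKO, RAD21 was past 2-fold toward DKO at 44.7% and toward HCT116 at 0.683%, with a median M of 0.89. At the 5632 over CTCF regions higher in HCT116 it was past 2-fold toward HCT116 at 35.3% and toward DKO at 0.763%, with a median of -0.75. Among RAD21 regions called in both lines these medians were 0.61 and -0.54. Spearman's rho of M was 0.48 across 115961 matched regions and 0.23 across 53670 called in both lines in both tables. RAD21 regions with a CTCF region had a median M of 0.19, with 14.2% past 2-fold toward DKO and 6.11% toward HCT116. Those without one had a median of 0.01, with 12.8% and 13.4%. With 1 offset for all densities the medians were 0.23 and 0.18, and the difference of 0.18 became 0.05. It was 0.08 when midpoints had to lie within 500 bp.

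Read from the side of RAD21, regions past 2-fold lay over CTCF regions past 2-fold the same way more often than all RAD21 regions did. Of the regions past 2-fold toward DKO, 85.8% were called in DKO only, and of those toward HCT116, 74.3% in HCT116 only. Most thus passed the call through the line where RAD21 is high, and the shares are given as a description. Of all RAD21 regions, 12.2% lay over a CTCF region higher in DKO, 3.13% over one higher in HCT116, and 64.4% over any CTCF region. Of the RAD21 regions past 2-fold toward DKO, 39.9% (95% Wilson interval 39.3% to 40.5%) lay over a CTCF region also past 2-fold toward DKO, 26.7% over a CTCF region that was not past 2-fold, and 33.3% over none. Of those toward HCT116, 12.7% (12.2% to 13.2%) lay over a CTCF region past 2-fold the same way, 31.6% over one that was not, and 54.8% over none. CTCF past 2-fold the other way was found at 43 and 150 regions. CTCF and SMC1 were both past 2-fold with RAD21 at 4573 regions toward DKO (18.6%) and at 635 toward HCT116 (4.06%). Of all RAD21 regions, with or without CTCF, 5.94% lay over an SMC1 region higher in DKO and 1.45% over one higher in HCT116. Regions with none of CTCF, SMC1 and H3K27Ac were 17.5% of those toward DKO and 24.8% of those toward HCT116. Of all 25997 RAD21 regions with none of them, 16.6% were past 2-fold toward DKO and 14.9% toward HCT116. Among all RAD21 regions these shares were 13.7% and 8.7%.

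Where RAD21 and CTCF were both called, the distance between their summits depended on the calling groups. It had a median of 23 bp at 53670 pairs called in both lines in both tables, 66 bp at 18609 pairs called in DKO only in both, and 66 bp at 3650 pairs called in HCT116 only in both. At 17922 pairs of a RAD21 region called in DKO only with a CTCF region called in both lines it was 441 bp, and the CTCF regions had a median length of 1356 bp. For RAD21 called in HCT116 only over CTCF called in both lines it was 257 bp at 8932 pairs. These pairs held 26.6% of the RAD21 regions called in DKO only and 20.4% of those called in HCT116 only. In all, 36913 RAD21 regions shared their CTCF region with another RAD21 region, up to 11 on 1 CTCF region. These had a median M of 0.25, with 12.3% past 2-fold toward DKO and 2.15% toward HCT116, against 0.14, 15.0% and 7.96% at RAD21 regions alone on their CTCF region.

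RAD21 was lower in DKO, relative to other RAD21 regions, where chromatin carried the marks of active promoters and enhancers. The 86393 regions that overlapped an H3K27Ac region had a median M of -0.07, with 9.14% past 2-fold toward DKO and 11.0% toward HCT116. The 93668 without one had a median of 0.31, with 17.9% and 6.57%. The difference of -0.38 was negative on each of 23 chromosomes (Y, with 15 RAD21 regions, was left out), from -0.54 to -0.25, and was also negative on each among regions called in both lines. For Pol2Ser5, the initiating form of RNA polymerase II, the medians were -0.15 with a region and 0.25 without. They were -0.08 and 0.25 for TotalRNAPol2, whose label names a Pol2Ser5 antibody, and -0.04 and 0.21 for Pol2Ser2, the elongating form.

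Taken over all densities, median M was lower the more of these 4 tables a RAD21 region overlapped. Median M was 0.33 at 73981 regions that overlapped no acetylation or polymerase region, 0.15 with 1 table, 0.11 with 2, 0.00 with 3 and -0.27 at 31742 regions with all 4. The share past 2-fold toward DKO went from 18.8% to 7.29% between the ends, and the share toward HCT116 from 6.84% to 13.4%. Among regions called in both lines the medians were 0.20, 0.13, 0.07, -0.07 and -0.38. With 1 offset for all densities they were 0.44, 0.22, 0.17, 0.05 and -0.27. Recentring on all regions lowers each by the same amount, to 0.19 with no table and -0.41 with 4, so the sign in the classes between depends on the centring while the order does not. With a single table the medians were 0.13 for H3K27Ac alone, 0.20 for Pol2Ser5 or TotalRNAPol2 alone and 0.22 for Pol2Ser2 alone, against 0.33 with none.

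The same order was seen at sites with the full set of partners, and there the other targets can be read beside it. At RAD21 regions with both CTCF and SMC1, the median M of RAD21 was 0.34, 0.23, 0.19, 0.06 and -0.31 from 0 to 4 tables. That of SMC1 at the same regions was 0.23, 0.23, 0.21, 0.16 and -0.02, and that of CTCF was -0.07, 0.13, 0.19, 0.25 and 0.30. CTCF thus ran the other way from RAD21 along this series, while SMC1 was nearly level up to 3 tables and lowest with 4. The levels behind the RAD21 values were median densities of 46.8 in HCT116 and 61.0 in DKO with no table, and 89.8 and 69.5 with 4. The tables were normalized separately, so M is compared between classes of 1 target and not between targets. With 1 offset for all densities the ends were 0.37 and -0.38 for RAD21, 0.22 and -0.02 for SMC1 and -0.13 and 0.25 for CTCF.

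Density moved with this series and was therefore held within the density classes. At RAD21 regions with CTCF and SMC1 in the highest class, median M was 0.23 with no table (13166 regions) and -0.40 with 4 (13549 regions). In the upper middle class it was 0.36 and -0.08. In these denser classes each further table went with a lower median, and in the thinner ones the order broke. From 0 to 4 tables the medians were 0.53, 0.40, 0.43, 0.30 and 0.33 in the lower middle class and 1.02, 0.66, 0.43, 0.49 and 0.75 in the lowest, where 202 regions had all 4 tables. The difference between the ends was larger in the highest and upper middle classes than in the other 2. Among the regions of the highest class with all 4 tables, 14.2% were past 2-fold toward HCT116 and 4.48% toward DKO, against 1.28% and 7.36% with no table.

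**Figure D3:**
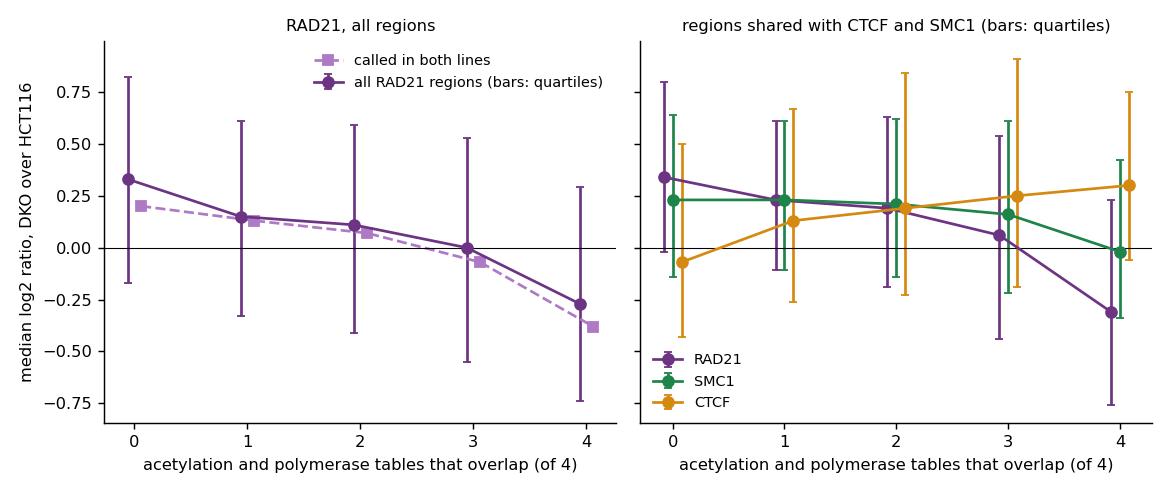
Median log2 ratio, DKO over HCT116 (y axis), by the number of acetylation and polymerase tables that a RAD21 region overlaps (x axis). The left panel shows all RAD21 regions and those called in both lines, and the right panel shows RAD21, SMC1 and CTCF at RAD21 regions shared with CTCF and SMC1, with bars for quartiles over regions. RAD21 goes from 0.34 to -0.31 in the right panel while CTCF goes from -0.07 to 0.30.

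CTCF was crossed with H3K27Ac at sites shared with SMC1, where RAD21 differed with both but did not follow H3K27Ac in every class. Of all H3K27Ac regions, 11.0% were past 2-fold toward DKO and 10.4% toward HCT116. Where CTCF was higher in DKO and H3K27Ac had no region, RAD21 had a median M of 1.28 at 6426 regions and was past 2-fold toward DKO at 64.2%. With H3K27Ac also higher in DKO the median was 1.12 and the share 57.4% (2266 regions), and with similar H3K27Ac they were 0.64 and 29.5% (3678 regions). Where CTCF was higher in HCT116, RAD21 was past 2-fold toward HCT116 at 32.1% of 2002 regions without H3K27Ac and at 54.3% of 744 regions with H3K27Ac higher in HCT116, with medians of -0.69 and -1.06. With CTCF higher in DKO and H3K27Ac higher in HCT116, the RAD21 median was 0.35 (168 regions). With CTCF higher in HCT116 and H3K27Ac higher in DKO, it was -0.02 (54 regions). Of the 6426 regions, 24.1% were called in both lines, so these medians are partly set by the call. Among regions called in both lines, the medians with CTCF higher in DKO were 0.99, 0.86 and 0.46 in the order above. With CTCF higher in HCT116 they were -0.52 and -0.81, and where CTCF and H3K27Ac were opposed, 0.19 and -0.02.

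Similar CTCF did not fix the RAD21 value. At the 20985 regions with similar CTCF and no H3K27Ac region, median M was 0.26, with 7.20% past 2-fold toward DKO and 0.581% toward HCT116. At the 14270 regions where both CTCF and H3K27Ac were similar, median M was -0.26, with 1.40% toward DKO and 11.1% toward HCT116. Among regions called in both lines these medians were 0.22 and -0.29, and with chromosome medians removed they were 0.12 and -0.39. The HCT116 densities of these classes were 61.5 and 107, and the DKO densities 73.9 and 75.2. So the DKO densities were alike, while the HCT116 density was higher in the acetylated class. With similar CTCF, the median M was 0.22 where H3K27Ac was higher in DKO (1360 regions). It was -0.26 where H3K27Ac was higher in HCT116 (1687 regions), the same as with similar H3K27Ac.

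At cohesin sites without CTCF, RAD21 differed with acetylation. Where SMC1 but no CTCF region was present and H3K27Ac was higher in DKO, RAD21 had a median M of 0.76 and was past 2-fold toward DKO at 36.5% of 2665 regions. Where H3K27Ac was higher in HCT116, the median was -0.82 and 39.2% of 1917 regions were past 2-fold toward HCT116. With similar H3K27Ac the median was -0.17 (6554 regions), and without an H3K27Ac region it was 0.41 (4307 regions). Among RAD21 regions called in both lines, the medians were 0.32 with H3K27Ac higher in DKO and -0.48 with it higher in HCT116. There they were -0.32 with similar H3K27Ac and 0.11 without an H3K27Ac region.

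**Figure D4:**
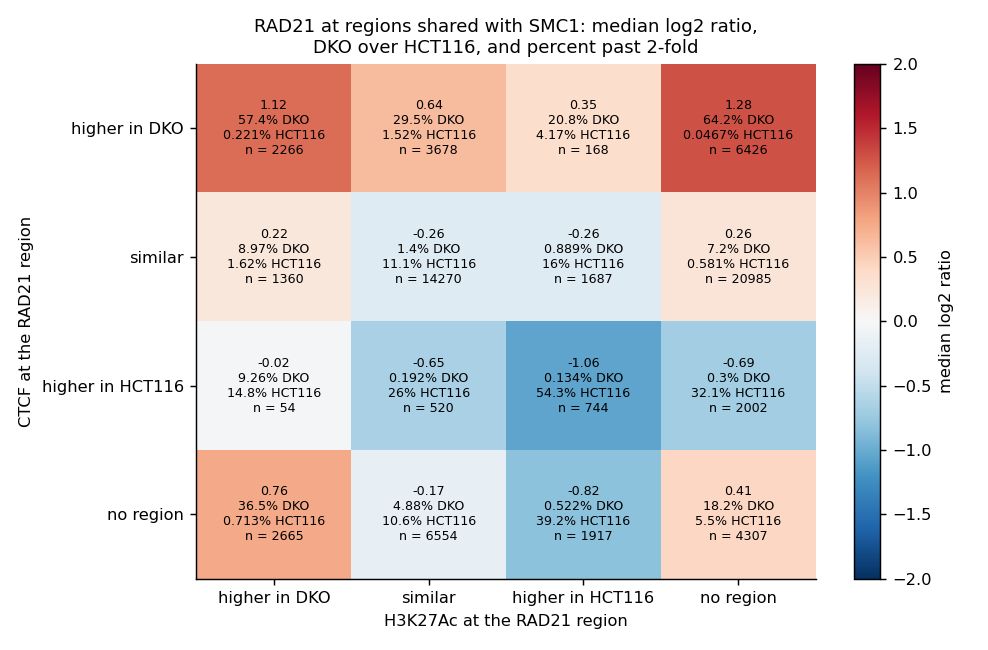
RAD21 regions shared with SMC1, by the difference of CTCF (vertical) and of H3K27Ac (horizontal) at the same place. Each cell gives the median log2 ratio of RAD21, which sets the colour, then the percent of RAD21 regions past 2-fold toward DKO and toward HCT116, and the number of regions. Regions whose CTCF or H3K27Ac lay between similar and 2-fold are not drawn. RAD21 goes from 1.28 where CTCF was higher in DKO without acetylation to -1.06 where both were higher in HCT116. Among regions called in both lines, which are not drawn apart, these medians were 0.99 and -0.81.

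Over all regions, RAD21 had a higher median M where polymerase was higher in DKO than where it was higher in HCT116, and this order did not hold for Pol2Ser2 among RAD21 regions called in both lines. Of all Pol2Ser5 regions, 14.9% were past 2-fold toward DKO and 21.0% toward HCT116. RAD21 had a median M of 0.49 over Pol2Ser5 regions higher in DKO, -0.37 over similar ones and -0.52 over those higher in HCT116. For TotalRNAPol2 (20.7% and 10.2% of its regions past 2-fold) the 3 medians were 0.36, -0.29 and -0.51. For Pol2Ser2 (18.6% and 10.9%) they were 0.13, -0.09 and -0.15. The median over similar Pol2Ser5 regions was below 0 under each scaling: -0.35 with 1 offset, -0.50 with chromosome medians removed and -0.43 among RAD21 regions called in both lines. Among these regions the medians over polymerase higher in DKO, similar and higher in HCT116 were 0.18, -0.43 and -0.27 for Pol2Ser5, 0.11, -0.38 and -0.28 for TotalRNAPol2, and -0.13, -0.24 and -0.07 for Pol2Ser2. RAD21 was thus lower over similar polymerase than over polymerase higher in HCT116 in all 3 tables. Spearman's rho of M with RAD21 was 0.42 for Pol2Ser5 (58684 regions), 0.39 for TotalRNAPol2 (67970 regions) and H3K27Ac (86393 regions), and 0.09 for Pol2Ser2 (54543 regions). Among pairs called in both lines in both tables it was 0.18, 0.08, 0.24 and -0.06 in that order. Nothing is read from these weak values, nor from the 0.23 of CTCF.

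Neighbouring RAD21 regions tended to differ the same way. Among 68084 pairs of adjacent regions 2 to 20 kb apart, too far to share a counting window, the second was past 2-fold toward DKO in 12.6% of all pairs, in 22.4% where the first was and in 7.06% where the first was past 2-fold toward HCT116. Toward HCT116 these shares were 9.68% of all pairs, 21.8% and 5.32%. Spearman's rho of M across the pairs was 0.23, a weak value from which nothing is read. Shifts of whole segments or chromosomes were left in M here, and their part in these shares was not tested.

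RAD21 differed on the scale of chromosomes and segments as well. Among chromosomes other than Y, median M went from -0.16 on X (3232 regions) to 0.38 on chromosome 21 (2572 regions). In the segment of chromosome 13 from 48 to 54 Mb, 226 RAD21 regions had a median M of -1.09 and 54.4% were past 2-fold toward HCT116. In that of chromosome 20 from 42 to 48 Mb, 773 regions had a median of 0.68 and 32.2% were past 2-fold toward DKO. Among the regions of these segments called in both lines the medians were -0.95 and 0.56. Here the number of DNA copies and the amount of binding per copy cannot be told apart, since the input libraries were not used.

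Single regions show the range of RAD21. They were taken by rule from the denser 50% of regions, by the line with the higher density, and their coordinates are those of the authors' table (hg19). The region with the highest M that had reads in both libraries was chr11:39387107-39387822, where DKO had 129 reads and HCT116 1 read (M 5.44, exact interval at 95% of 3.92 to 11.74). SMC1 there had 59 and 6 reads and CTCF 106 and 5, and no acetylation or polymerase region overlapped it. At chr20:18411894-18412272 there were 69 RAD21 reads from DKO and 0 from HCT116, at least 14.1-fold higher when 3 reads are taken as the floor. At chr17:31974376-31975837 it had 124 and 2 reads (M 4.83, 3.52 to 8.47), while CTCF was called in both lines with 198 and 42. At chr5:19795003-19795820 it had 108 and 2 reads (M 4.62, 3.30 to 8.26). The 6 regions with the highest M all overlapped CTCF and SMC1 regions higher in DKO, and 5 of them overlapped no acetylation or polymerase region. The exception, chr2:227184925-227185901 with 142 and 3 reads, overlapped an H3K27Ac region with 15 and 38 reads. Of all RAD21 regions, 41.1% overlapped no acetylation or polymerase region, and of those past 2-fold toward DKO 56.4%. CTCF and SMC1 were both higher in DKO at 18.6% of the latter. The 6 were picked by M, so nothing is read from these counts.

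Among acetylated sites with both partners, the highest was chr18:65182912-65184549. RAD21 had 451 reads from DKO and 15 from HCT116 there (M 4.54, 3.89 to 5.48), CTCF 432 and 6, and H3K27Ac 115 and 5. Away from CTCF, chr3:73022067-73022718 had 75 and 3 RAD21 reads (M 3.68, 2.47 to 6.38), 71 and 12 of SMC1 and 296 and 35 of H3K27Ac. At chr5:67069258-67070197 RAD21 had 73 and 3 reads (M 3.64, 2.43 to 6.34), with 320 and 36 of H3K27Ac. Both of these places also held a Pol2Ser5 region higher in DKO, with 51 and 8 reads at the first and 23 and 4 at the second, and at the second SMC1 had 35 and 5. A RAD21 region with a CTCF but no SMC1 region, chr16:28074595-28074765, had 90 and 2 reads (M 4.34, 3.02 to 7.98), and CTCF had 154 and 1.

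In the other direction, chr20:31377510-31378789 had 0 RAD21 reads in DKO and 174 in HCT116. The other targets with a region there had 0 reads in DKO as well, against 151 in HCT116 for SMC1, 431 for CTCF, 47 for Pol2Ser2 and 74 for TotalRNAPol2. It is 1 of 3 regions close together with 0 reads in DKO (chr20:31368726-31369063 had 43 in HCT116 and chr20:31380415-31380654 had 24), where loss of DNA and loss of binding cannot be told apart. At chr13:65639116-65639478 there were 5 RAD21 reads from DKO and 58 from HCT116 (M -3.85, -5.77 to -2.79), SMC1 7 and 33, and CTCF 9 and 110. At chr7:120943557-120944154 it had 7 and 77 reads (M -3.79, -5.33 to -2.85), and H3K27Ac had 4 and 484. Without a CTCF region, chr1:198904540-198905040 had 4 and 46 RAD21 reads (M -3.83, -6.05 to -2.66), with 21 and 52 of SMC1 and 12 and 170 of H3K27Ac. At chr9:116111907-116112472, which has no SMC1 region, RAD21 had 8 and 45 reads (M -2.90, -4.33 to -1.93) while CTCF had 41 and 48 (M -0.37) and H3K27Ac an M of -0.48. There RAD21 was lower in DKO at a site where CTCF and acetylation were similar.

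The densest RAD21 regions that were similar in the lines were broad. At chr17:48069996-48077104, a region of 7108 bp, RAD21 had 1030 reads from DKO and 1083 from HCT116 in its window (M 0.11, -0.01 to 0.24), and SMC1 had 724 and 651. Pol2Ser5 in the same place had 357 and 20 reads (M 3.31), and CTCF 991 and 754 (M 0.63). At chr16:88496930-88513854, of 16924 bp, RAD21 had 897 and 1049 reads (M -0.06, -0.19 to 0.07). At chr17:59485181-59491190 it had 778 and 1080 (M -0.31, -0.45 to -0.18), and H3K27Ac had 243 and 719 (M -1.46). The windows are shorter than these regions, so the reads describe their centre.

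**Figure D5:**
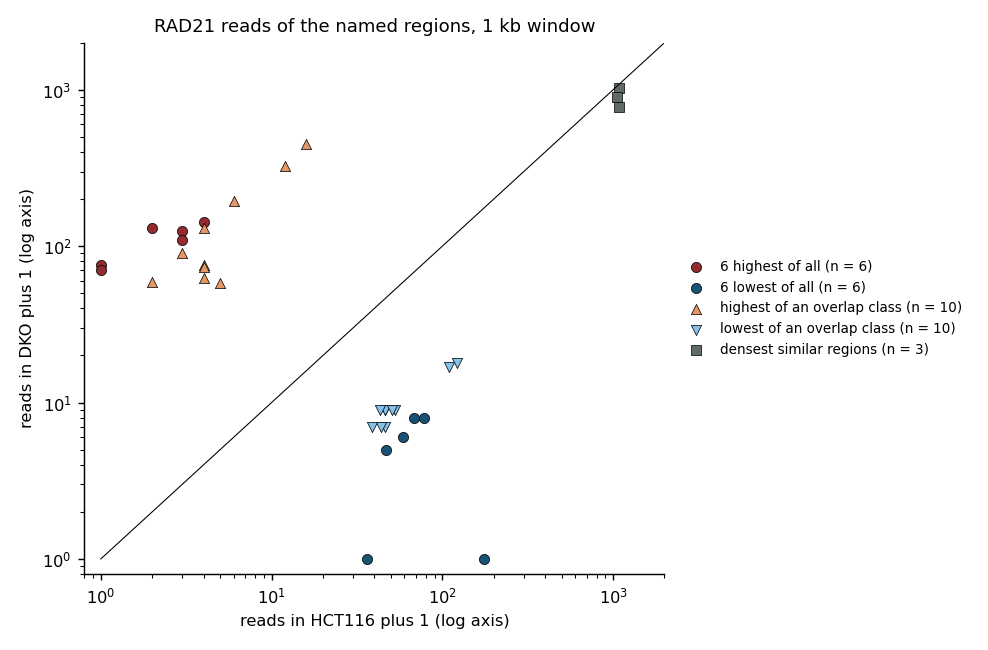
RAD21 reads of the 35 regions taken by rule, in HCT116 (x axis) and in DKO (y axis), in 1 kb windows, plus 1 and on log axes. The line marks equal reads, before the authors' scaling. The regions with the highest M had at most 15 reads in HCT116, those with the lowest M had at most 17 in DKO, and the 3 densest similar regions lie near the line.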

How the data were processed

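The RAD21 libraries of both lines, 1 each, were analysed, with the 6 other tables for overlap. Reads were aligned with BWA to hg19 and peaks called with MACS2, per the submitters' processing notes, with versions and peak cutoffs not given in the sources used here. The authors deposited 1 table per target with a normalized read density per line (a signal), M and A as log2 values, a p-value and the calling group, per the file headers. The deposited p-value was used in 1 alternative filter. M was checked against the log2 ratio of the densities. Reads were recovered from M and A: 100% of values were whole within 0.05, with 1 added to each count, and the RAD21 scaling was a line in density with a slope of -0.13. Of the RAD21 regions, 40.5% had another midpoint within 1 kb and can share reads.

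A difference was called at M of 1 or more, or -1 or less. A match needed 1 bp, and the longest overlap was used. Intervals of M are exact Clopper-Pearson and those of shares Wilson, both at 95%. Intervals of M and the floor of 3 reads cover counting error only, and PCR copies, which are not separate molecules, make them too narrow. The Wilson intervals take regions as independent. Regions share the same libraries and can share reads or a CTCF region, so these intervals are too narrow as well. Named regions were, among those with a higher density of at least its median (46.2), the 6 highest and 6 lowest M, the 2 highest and 2 lowest in each of 5 overlap classes, and the 3 densest similar ones, at least 100 kb apart. Members, lists and classes were chosen with earlier results of these data known. Gene annotation and sequence of hg19 were not used here. Alternatives were other scalings, thresholds, filters and overlap rules. Scripts used Python 3.11.15, numpy 2.4.6, pandas 2.3.3 and scipy 1.17.1 and were tested on simulated data.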

Additional observations from a re-analysis of the deposited data

How the results depend on the processing

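No paired analysis was possible because each line had 1 library per target. The cause of the changes below was not tested. The results are the counts of RAD21 regions past 2-fold toward DKO and toward HCT116, the log2 balance of these counts (0.65), and differences of median M between classes: with minus without CTCF (0.18), with minus without H3K27Ac (-0.38), 4 minus 0 acetylation and polymerase tables (-0.60, chosen after seeing the data), longest minus shortest (-0.12) and densest minus thinnest (-0.30). The last are the shares over CTCF regions past 2-fold the same way (44.7% DKO, 35.3% HCT116).

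Constant centring gave a balance of 1.52, differences of 0.05, -0.45, -0.70, -0.55 and -0.66 in that order, and shares of 49.4% and 30.7%. Recentring gave a reversed balance of -0.16 and shares of 43.5% and 32.1%. Removing chromosome medians gave a reversed balance of -0.18, -0.37 for H3K27Ac, -0.57 for 4 tables, and 43.8% and 33.6%. Regions called in both lines gave 3465 and 3989, a reversed balance of -0.20, differences of 0.20, -0.36, -0.58, a reversed 0.04 for length and a reversed 0.11 for density, and 30.8% and 21.0%. Higher densities at or above the median gave 11774 and 7440, then 0.26, -0.47, -0.70 and -0.25 for length, and 49.5% and 41.1%. One region per window gave a balance of 0.55, then 0.20 for CTCF, -0.62 for 4 tables, -0.11 for length, -0.23 for density and 48.8%. Leaving out 3 segments and chromosome X gave a balance of 0.69. A deposited p under 1e-05 gave 8513 and 5330. A 1.5-fold threshold gave 49765, 34963, a balance of 0.51, 56.0% and 40.5%, and a 4-fold threshold 3550, 1179, 1.59, 23.7% and 23.5%. Matching on 50% cover gave 0.15 for CTCF and 45.8%, and midpoints within 500 bp gave 0.08 and -0.23. Length classes of equal size gave -0.15 and density classes by the higher density -0.08. Regions with CTCF and SMC1 gave -0.65 for 4 tables. Of 88 alternatives, 28 stayed within 1.5 times of a count or within the 95% interval of a value. At 30 reads a region in HCT116, differences well under 2-fold cannot be resolved at single thin regions.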
